A study of Arabidopsis thaliana with 6 samples.

Results

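Ribosomal proteins are the protein part of the ribosome, the particle that makes all other proteins. Of 27655 genes listed for Arabidopsis thaliana, 186 coded in the nucleus were taken as ribosomal protein genes, 108 of the large subunit and 78 of the small subunit. They were chosen by nuclear locus and by a name made of RPL or RPS, a number and optional letters. The pattern took 187 genes, and 1 of them, an immune receptor, was left out. Ribosomal proteins that carry other names are not among the 186, so the set is not the whole of the family. Col-0 (Columbia) seedlings, aged 14 days, were grown on plates in long days, and RNA of whole seedlings was sequenced. The submerged group had spent 1 h under water and the air group 1 h in air, with 3 libraries each. No transgene or mutation is named in the labels for either group.

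Plant cells hold ribosomes of 3 kinds, in the cytosol, in the plastid and in the mitochondrion, and the nucleus codes for all cytosolic and most organellar ribosomal proteins. Each cytosolic protein usually has several gene copies (paralogues) of nearly the same protein, and a ribosome needs most of its proteins in equal number. Making ribosomes is among the most costly tasks of a growing cell, and translation is known to fall quickly in plants that are short of oxygen. The name pattern does not tell the kinds apart, so members were placed by RefSeq product text for 6 genes and by general knowledge for 180. There were 157 cytosolic members in 64 families (87 of the large and 70 of the small subunit) and 25 plastid members (20 of the large and 5 of the small subunit). RPL21M and RPS9M were mitochondrial, and RPS15AB and RPS15AE could not be placed. Gene names follow the deposited table, which differs from RefSeq for a few pairs: RPS5A (AT2G37270) and RPS5B (AT3G11940), for example, have each other's name there.

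Promoters of cytosolic ribosomal protein genes are known for 2 short motifs, the telo-box (AAACCCTA) and site II (TGGGCC or TGGGCT, bound by TCP factors). The 150 bases before the annotated start are shown for the most abundant cytosolic and plastid member of each subunit in air. All are from the TAIR10.1 assembly of RefSeq, 5′ to 3′ on the strand of the gene. Capitals mark telo-box and site II letters on either strand. RPL14B (chr4:13595253-13595402, minus strand) holds 1 telo-box and 2 site II matches. RPS8A (chr5:6853107-6853256, minus strand) holds 3 site II matches, and its last capitals begin a telo-box on the other strand that runs past the start. The plastid genes RPL29 (chr5:26061015-26061164, plus strand) and RPS1 (chr5:11621299-11621448, minus strand) hold no match to either motif in these windows.
RPL14B: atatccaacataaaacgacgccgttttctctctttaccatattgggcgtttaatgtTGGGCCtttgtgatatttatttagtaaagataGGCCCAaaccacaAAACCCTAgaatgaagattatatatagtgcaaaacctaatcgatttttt
RPS8A: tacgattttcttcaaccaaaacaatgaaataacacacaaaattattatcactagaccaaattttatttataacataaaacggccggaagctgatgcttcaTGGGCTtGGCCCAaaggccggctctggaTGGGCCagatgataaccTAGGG
RPL29: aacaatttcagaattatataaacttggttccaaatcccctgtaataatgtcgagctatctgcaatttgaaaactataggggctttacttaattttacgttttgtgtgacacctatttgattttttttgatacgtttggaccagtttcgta
RPS1: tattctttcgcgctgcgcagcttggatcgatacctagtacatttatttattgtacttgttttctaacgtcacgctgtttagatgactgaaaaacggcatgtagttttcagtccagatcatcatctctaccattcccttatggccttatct

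In a window from 250 bases before to 50 bases after the start, both strands read, the telo-box was found in 76 of 157 cytosolic members (48.4%) and in 5 of 25 plastid members (20%). It was found in 6.22% of the 27443 nuclear promoters read in the same way. Site II was found in 118 cytosolic members (75.2%), 10 plastid members (40%) and 21.7% of all promoters. Both motifs stood together in 40.1% of cytosolic members, in 4% of plastid members and in 2.2% of all promoters. The motifs have different places: site II was most frequent in the 50 bases before the start, with a match in 49.7% of cytosolic members, and the telo-box in the 50 bases after it, with 28%. A match is a description of the letters and not a site in use. The longer form AAACCCTAA was found in 26.8% of cytosolic members, 4% of plastid members and 3.6% of all promoters. TGGGCC, counted alone, was found in 63.1%, 16% and 15.5%. With these stricter letters the plastid shares were near those of all promoters.

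**Figure D1:**
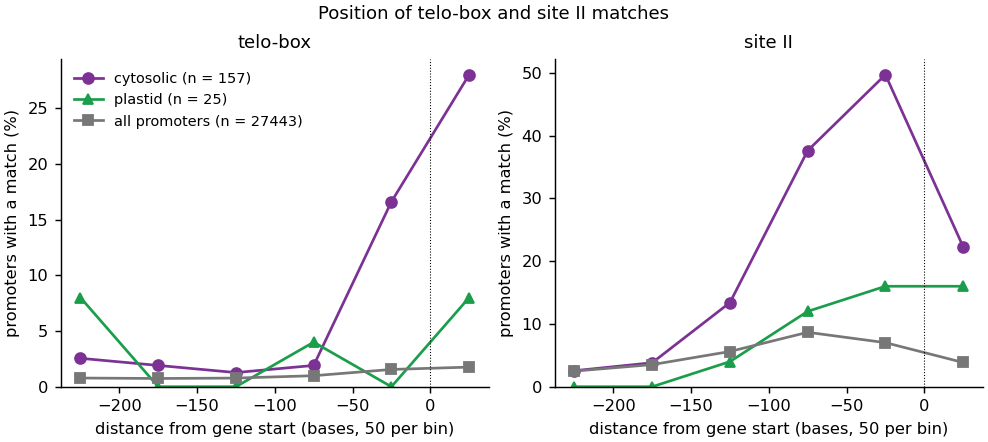
Share of promoters (y axis, %) with a match to the telo-box (left) or site II (right) in bins of 50 bases, by distance from the annotated gene start (x axis, bases). Cytosolic members (n = 157) reach 28% for the telo-box just after the start and 49.7% for site II just before it, while all promoters (n = 27443) stay under the cytosolic line at both peaks.

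In units of 1e6 counts, the libraries held 29.67, 22.22 and 20.04 in the submerged group and 25.90, 20.56 and 20.29 in the air group. Of the 186 members, 174 had enough counts to be tested; of the other 12, 5 had 0 counts in every library and none had more than 7 counts in any. Genes were tested with edgeR's quasi-likelihood test over 19495 genes, and "called" means a Benjamini-Hochberg adjusted p under 0.05. Across all genes 55.0% were called, 28.8% higher and 26.1% lower, so a call by itself is common in this comparison. The labels name biological replicates and nothing more, and each p-value is set by the spread between these particular libraries, which may be technical. In whole seedlings, fewer cells of a type and less RNA per cell cannot be told apart.

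After 1 h under water, cytosolic ribosomal protein transcripts were higher by a small amount and plastid ones lower by a small amount. Of 145 cytosolic members tested, 67 rose and 4 fell (46.2% and 2.76%), with a median log2 difference of 0.14, which is a ratio of 1.1. Of 25 plastid members, 14 fell and 1 rose (56% and 4%), with a median of -0.17, a ratio of 0.888. The median over all genes was 0.005, with quartiles at -0.35 and 0.41. Changes of 2-fold or more were seen in 1 member, RPL27A. By subunit alone, with all compartments together, 39 of 102 large subunit members rose and 15 fell, and 30 of 72 small subunit members rose and 4 fell.

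Abundant genes are called more often, so the shares were also set beside genes of like level. Among the 4317 genes with a mean of at least 50 CPM (counts per 1e6 counts of the library), 40.0% were called higher and 33.7% lower. Of the 121 cytosolic members at that level, 43.8% rose and 1.65% fell. The share that rose was therefore near that of other abundant genes, and the share that fell was below it. All 25 plastid members lie at that level, and 56% of them fell.

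How many members went each way depended on how libraries were scaled. Under upper quartile scaling the median over all genes moved to -0.12, and the cytosolic members gave 31 calls higher and 21 lower, in place of 67 and 4. Of the 25 plastid members, 24 were then called lower. The medians of the large and small subunit, all compartments together, changed sign to -0.03 and -0.001. Relative to the median over all genes, the cytosolic median stood at 0.135 and the plastid median at -0.177 under both scalings. The cytosolic members stood above the plastid members by 0.31 in median log2 difference, a value that scaling cannot change.

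**Figure D2:**
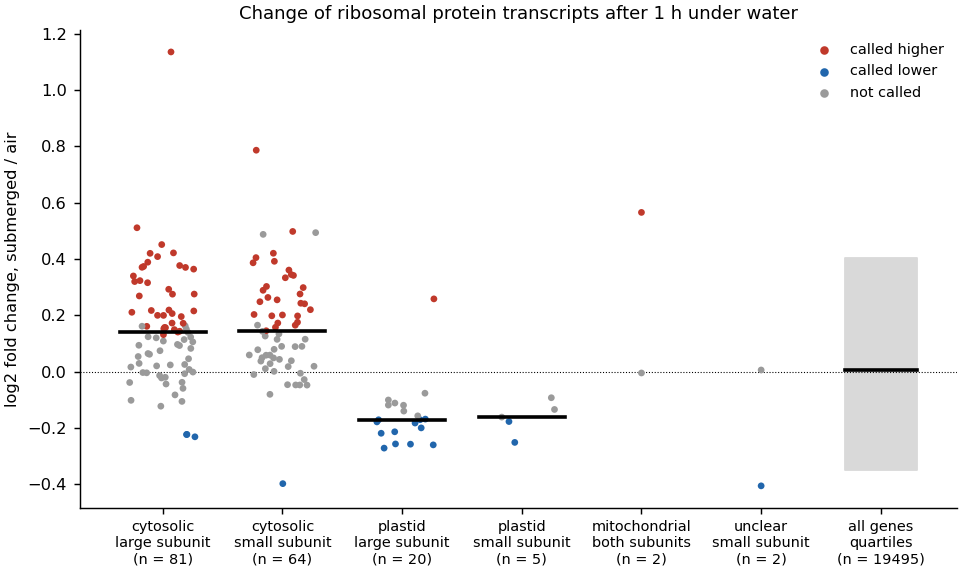
Log2 difference of submerged over air (y axis) for each of the 174 members tested, 1 point a gene, by compartment and subunit, with horizontal bars at the class medians and grey shading over the quartiles of all 19495 genes. Cytosolic medians lie at 0.14 in both subunits and plastid medians at -0.17 and -0.16; with upper quartile scaling all points shift down by about the same amount and the cytosolic medians come to 0.02.

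The groups can also be read from the CPM of each library, which carry the same scaling factors as the test. For 78 of the 145 cytosolic members all 3 submerged libraries lay above all 3 air libraries, and for 6 they lay below; over all genes these shares were 32.2% above and 30.0% below. Among the 4317 genes with a mean of at least 50 CPM, 1845 lay above and 1550 below. Of the 25 plastid members, 1 lay above and 16 below. The median cytosolic member stood at 0.19, 0.12 and 0.13 in the submerged libraries and at 0.01, -0.06 and 0.05 in the air libraries, as log2 CPM against the air mean. The median plastid member stood at -0.23, -0.20 and -0.09 in the submerged libraries and at 0.03, -0.07 and 0.02 in the air libraries. With this scaling the groups did not overlap for either class, and submerged replicate 3 was the nearest to air among the plastid values. These counts and medians depend on the scaling. With upper quartile scaling the cytosolic median log2 difference was 0.018 in place of 0.14.

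Summed over members, in TPM (transcripts per 1e6, which allows for gene length), the cytosolic set made up 40518, 38838 and 37885 TPM in the submerged libraries and 35845, 35180 and 36722 TPM in the air libraries. The plastid set made up 12308, 12467 and 13164 TPM in the submerged libraries and 14469, 14009 and 14359 TPM in the air libraries. Both sets kept the groups apart, in opposite directions. The mean ratio was 1.09 for the cytosolic sum and 0.886 for the plastid sum. The cytosolic sum was 3.10 ± 0.208 times the plastid sum under water and 2.52 ± 0.0402 times in air (SD, n = 3 each). All members together took 5.293%, 5.141% and 5.115% of TPM in the submerged libraries and 5.041%, 4.929% and 5.118% in the air libraries, where submerged replicate 3 fell just below air replicate 3 and the groups overlapped. The size of these ratios depends on the measure. As shares of counts, submerged over air came to 1.056 for the cytosolic set and 0.860 for the plastid set. For all members it was 0.9993 by counts and 1.031 by TPM.

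**Figure D3:**
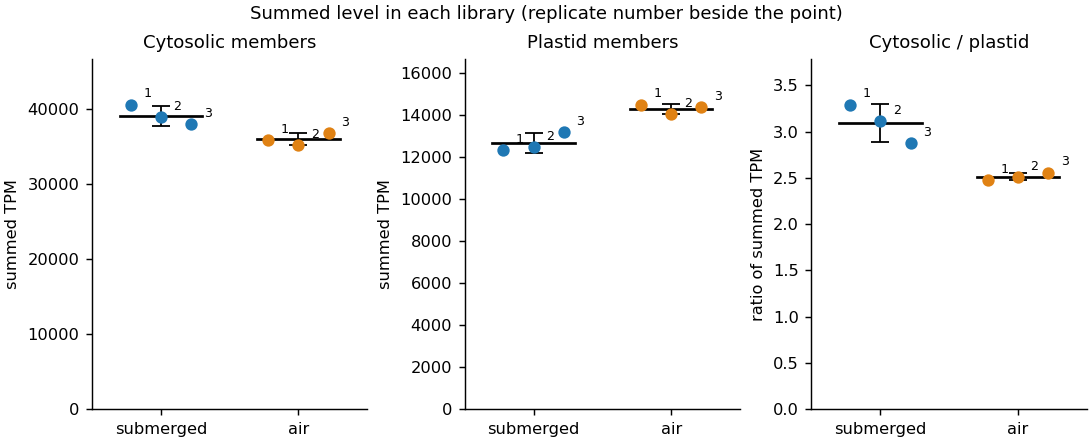
Summed TPM of the 157 cytosolic members (left), of the 25 plastid members (middle) and their ratio (right), 1 numbered point per library, with group mean (bar) and SD (whiskers), n = 3 per group. The submerged libraries lie above air for the cytosolic sum and for the ratio, and below air for the plastid sum.

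Among cytosolic proteins of the large subunit, 38 of 81 members rose and 3 fell. RPL27A (AT2G32220), a rare copy of a large subunit protein, had 10.9, 10.1 and 9.6 CPM in the submerged libraries and 4.64, 3.76 and 5.56 CPM in the air libraries. Every submerged library was above every air library, and the gene rose by a log2 difference of 1.14 ± 0.16 (SE; adjusted p = 6.06e-05). RPL26B (AT5G67510), whose protein lies near the mouth of the tunnel through which the new chain leaves, had 56.8, 56.7 and 51.4 CPM under water and 35.2, 37.1 and 43.8 CPM in air. It rose by 0.51 ± 0.08 (adjusted p = 0.000175), with air replicate 3 the highest of the air libraries.

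RPL19B (AT3G16780), whose protein helps to bridge the large and small subunit, had 71.6, 65.4 and 65.2 CPM under water and 53.8, 44.4 and 49.7 CPM in air. It rose by 0.45 ± 0.07 (adjusted p = 0.000215), and its groups did not overlap. RPL9D (AT4G10450) had 51.2, 52.1 and 52.6 CPM under water and 38.7, 40.2 and 37.5 CPM in air, with little spread in either group (0.42 ± 0.06, adjusted p = 5.44e-05). RPL10B (AT1G26910) is a copy of a protein that joins the large subunit late in its assembly in yeast. It had 14.4, 16 and 16.4 CPM under water and 11.6, 10.7 and 12.7 CPM in air, and rose by 0.42 ± 0.11 (adjusted p = 0.00532). All 3 members of the RPL10 family rose.

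The most abundant cytosolic member of the large subunit did not pass the test. RPL14B (AT4G27090), whose promoter is shown above, had 415, 399 and 403 CPM under water and 406, 410 and 434 CPM in air, and the groups overlapped. Its log2 difference was -0.04 ± 0.05 (adjusted p = 0.569), and per length it averaged 912 ± 30.9 TPM under water and 935 ± 30.1 TPM in air (SD). With upper quartile scaling it was called lower, at -0.16.

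The 3 large subunit members that fell are copies in families in which another copy rose. RPL19C (AT4G02230) had 124, 123 and 117 CPM under water and 142, 136 and 149 CPM in air (-0.23 ± 0.06, adjusted p = 0.00369). RPL35C (AT3G55170) had 23.6, 26.2 and 25.5 CPM under water and 30, 29.3 and 28.6 CPM in air (-0.22 ± 0.07, adjusted p = 0.0214). RPL36A (AT2G37600) had 58.5, 53.0 and 55.2 CPM under water and 62.9, 65.1 and 66.8 CPM in air (-0.22 ± 0.06, adjusted p = 0.00705). In all 3 genes every submerged library was below every air library. The call of RPL35C was lost without air replicate 1 (adjusted p = 0.0713) or submerged replicate 1 (adjusted p = 0.11) and with DESeq2 (adjusted p = 0.0506).

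Among cytosolic proteins of the small subunit, 29 of 64 members rose and 1 fell. RPS2D (AT3G57490), of a family that lines the channel where the messenger RNA enters, had 42, 34.8 and 34.2 CPM in the submerged libraries and 20.5, 19.9 and 24.2 CPM in the air libraries. The groups lay well apart, and the gene rose by 0.79 ± 0.10 (adjusted p = 2.26e-05).

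RPS28C (AT5G64140) had 74.5, 64.3 and 67.4 CPM under water and 48.1, 53.5 and 52.9 CPM in air, and rose by 0.42 ± 0.07 (adjusted p = 0.000235). RPS16B (AT3G04230) had 19.5, 20.6 and 21.6 CPM under water and 14.5, 16.1 and 16 CPM in air, and rose by 0.40 ± 0.09 (adjusted p = 0.00209). Neither gene had overlapping groups. RPS9C (AT5G39850), the small subunit member that fell, had 17.0, 18.7 and 16.7 CPM under water and 23.0, 18.7 and 27.5 CPM in air. Its groups overlapped at air replicate 2 (-0.40 ± 0.12, adjusted p = 0.0159).

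The most abundant cytosolic members of the small subunit in air were RPS8A and RPS23B, and neither passed the test. RPS8A (AT5G20290), the other cytosolic promoter shown above, had 578, 550 and 567 CPM under water and 534, 501 and 558 CPM in air (0.09 ± 0.06, adjusted p = 0.202). The lowest submerged library was below the highest air library, and with upper quartile scaling its sign turned to -0.03. RPS23B (AT5G02960), whose protein sits at the decoding centre, had 322, 316 and 320 CPM under water and 291, 284 and 301 CPM in air. Its groups did not overlap, but its difference of 0.13 ± 0.05 missed the threshold (adjusted p = 0.0546), which it passed with limma voom (adjusted p = 0.0366), with halved counts (adjusted p = 0.0489) and without submerged replicate 3 (adjusted p = 0.0444).

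RPS6 is the ribosomal protein that S6 kinases phosphorylate, and both of its genes rose. RPS6A (AT4G31700) had 274, 255 and 238 CPM under water and 206, 191 and 201 CPM in air (0.36 ± 0.06, adjusted p = 0.000309). RPS6B (AT5G10360) had 336, 322 and 310 CPM under water and 281, 265 and 285 CPM in air (0.22 ± 0.06, adjusted p = 0.00497). In both genes submerged replicate 1 was highest and the groups did not overlap.

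Plastid ribosomal proteins serve the translation of the genes kept in the plastid, among them core proteins of photosynthesis. Of the 20 plastid members of the large subunit 12 fell, and of the 5 of the small subunit 2 fell, RPS1 among them. RPL34 (AT1G29070) had 196, 213 and 232 CPM in the submerged libraries and 266, 244 and 263 CPM in the air libraries, and fell by 0.27 on the log2 scale (SE 0.07, adjusted p = 0.00426). RPL17 (AT3G54210) had 374, 376 and 413 CPM under water and 474, 440 and 479 CPM in air (-0.26 ± 0.06, adjusted p = 0.0025). Every submerged library of both genes lay below every air library, with submerged replicate 3 the highest of its group.

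RPL4 (AT1G07320), a protein that lines the exit tunnel, had 330, 336 and 341 CPM under water and 403, 376 and 424 CPM in air (-0.26 ± 0.06, adjusted p = 0.00203). RPL18 (AT1G48350) had 244, 234 and 280 CPM under water and 299, 284 and 322 CPM in air (-0.26 ± 0.07, adjusted p = 0.00954; adjusted p = 0.0601 without submerged replicate 2). The groups were apart in both, by little in RPL18.

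The plastid genes whose promoters are shown above fell as well. RPL29 (AT5G65220), the most abundant member in air, averaged 900 ± 31.1 TPM under water and 1050 ± 23.8 TPM in air (SD, n = 3 each). It had 438, 449 and 486 CPM under water and 551, 518 and 529 CPM in air (-0.22 ± 0.06, adjusted p = 0.00605). RPS1 (AT5G30510), which binds messenger RNA at the start of translation, had 630, 624 and 679 CPM under water and 736, 691 and 759 CPM in air (-0.18 ± 0.06, adjusted p = 0.0212). RPL6 (AT1G05190) had 451, 462 and 504 CPM under water and 548, 525 and 534 CPM in air (-0.18 ± 0.06, adjusted p = 0.0166). None of the 3 had overlapping groups. RPS1 lost its call when any of 4 libraries was left out (air replicate 1 or 3, submerged replicate 1 or 2; adjusted p 0.0704 to 0.0934), and RPL6 when any of 3 was (air replicate 1, submerged replicate 1 or 2; adjusted p 0.0686 to 0.0939).

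RPL3B (AT3G17465), the plastid member that rose, is placed in the plastid by RefSeq product text alone. It had 53.8, 60.8 and 55 CPM under water and 49.6, 43.7 and 48.3 CPM in air (0.26 ± 0.07, adjusted p = 0.00756). Its groups did not overlap, and with upper quartile scaling it was not called (adjusted p = 0.105). The number of plastid members that fell rested on single libraries. It came to 7 when submerged replicate 1 or 2 was left out, 21 when submerged replicate 3 was and 8 when air replicate 1 was, against 14 with all libraries. The direction did not: 24 of the 25 members were below 0 in every fit with a library left out.

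Genes that leaves express most fell alongside the plastid members. Of 8 leaf-preferred markers, which code for light-harvesting and carbon-fixing proteins, 7 fell (87.5%). The share that fell was 26.1% over all genes and 33.7% among those with a mean of at least 50 CPM. The summed level of the 8 markers ran from 21907 to 24511 TPM under water and from 31671 to 32753 TPM in air. The 14 root-preferred markers gave no single direction: 10 lay above 0, and the median log2 difference was 0.23. PYK10 fell, and the summed level, most of it PYK10, ran from 764 to 1144 TPM under water and from 1483 to 1814 TPM in air, opposite to the median. NRT2.1, under 1 CPM in every library, was called higher, and that call was lost with DESeq2, with no filter and when any library but submerged replicate 2 was left out. Of 12 markers of dividing cells ANT and MCM2 fell (16.7%, against 26.1% of all genes), while 10 lay below 0 and 2 above. The median marker had 5.97 CPM in air, against 16.4 CPM for all genes tested, and genes of low level are called less often. The sum of the 12 ran from 69.7 to 84.3 TPM under water and from 87.8 to 97.8 TPM in air. No marker was at 0 in any library. The part of these changes in the plastid or cytosolic results was not tested.

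The mitochondrial members differed from each other. RPS9M (AT3G49080), of the small subunit, had 37.6, 41.9 and 35.8 CPM under water and 27, 26 and 24.8 CPM in air, with the groups well apart (0.57 ± 0.08, adjusted p = 4.22e-05). RPL21M (AT4G30930), of the large subunit, had 20.6, 21.7 and 22.8 CPM under water and 20.1, 24.3 and 20.9 CPM in air, with overlap (-0.01 ± 0.09, adjusted p = 0.968). The members that could not be placed also differed: RPS15AB (AT2G19720) had 6.72, 5.36 and 5.68 CPM under water and 7.49, 7.81 and 8.36 CPM in air (-0.41 ± 0.15, adjusted p = 0.0358). RPS15AE (AT4G29430) stood at 0.01 ± 0.10 (adjusted p = 0.969). The call of RPS15AB was lost with DESeq2 (adjusted p = 0.0593) and when any library but submerged replicate 1 was left out (adjusted p 0.0546 to 0.117).

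Larger rises were found among cytosolic members of low level. Of the 29 cytosolic members tested with a mean under 100 TPM over all 6 libraries, 16 rose and 2 fell, with a median log2 difference of 0.34 and a range from -0.40 to 1.14. Of the 116 with at least 100 TPM, 51 rose and 2 fell, with a median of 0.12 and a range from -0.23 to 0.42. This split was made after the values were seen and is a description. Over all genes tested 28.8% were called higher and 26.1% lower, and no such share was taken for genes of like TPM. Single differences are less certain at low level: RPS23A stood at 0.49 with an SE of 0.48. Plastid members had the higher level per gene: the median plastid member had 501 TPM under water and 559 TPM in air, the median cytosolic member 254 TPM under water and 229 TPM in air, and the median gene tested 15.4 TPM under water and 14.5 TPM in air.

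**Figure D4:**
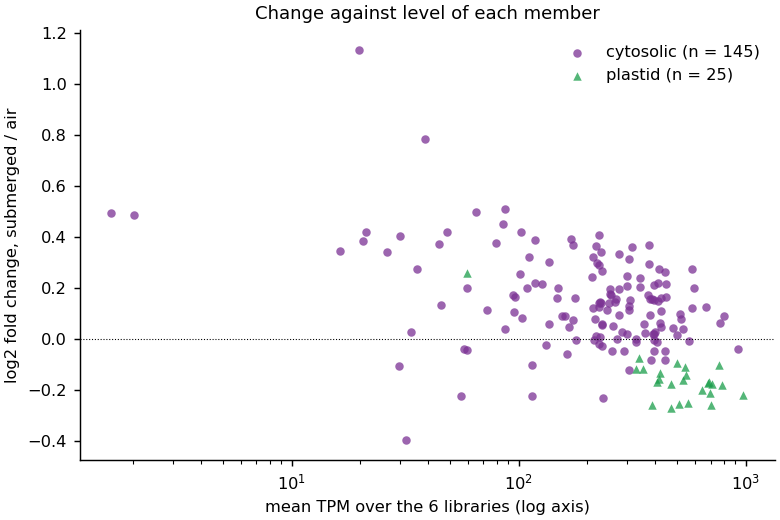
Log2 difference of submerged over air (y axis) against the mean TPM over all 6 libraries (x axis, log scale) for the cytosolic (circles, n = 145) and plastid (triangles, n = 25) members tested. The largest rises lie under 100 TPM, and the plastid members other than RPL3B lie below 0 at the high end.

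The cytosolic transcripts were also summed by family, which by itself evens out copies of unequal level. A family here holds only the copies whose deposited names fit the pattern, so some families may lack copies. Sums, shares and the most abundant (main) copy are of those copies alone. The 64 family sums had a median of 629 TPM (quartiles 544 and 746) under water and 568 TPM (quartiles 491 and 698) in air. The ratio of submerged to air lay above 1 for 59 of the 64 families, with a median of 1.085 and a range from 0.986 to 1.34. Counted by single gene, 119 of the 145 cytosolic members tested (82.1%) had a TPM ratio above 1, against 50.4% of all genes tested. With upper quartile scaling 79 of the 145 had a log2 difference above 0 and 66 below. In 54 families at least 2 copies were tested. In 9 of these every tested copy rose, in 28 some copies rose and none fell, in 13 no copy was called, in RPS9 a copy fell and none rose, and in RPL19, RPL35 and RPL36 a copy rose and another fell.

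The copies of a family differed by a median of 0.23 between the lowest and highest log2 difference, and the 4 widest families were RPL27, RPS2, RPL19 and RPL35. In RPL27 the rare copy RPL27A took 4.256%, 4.041% and 3.827% of the family's TPM under water and 2.099%, 1.821% and 2.442% in air. RPL27C (AT4G15000) had 227, 227 and 219 CPM under water and 195, 184 and 202 CPM in air (0.21 ± 0.06, adjusted p = 0.00571), and with upper quartile scaling it was not called (adjusted p = 0.153). RPL27B (AT3G22230) had 147, 136 and 149 CPM under water and 136, 125 and 136 CPM in air (0.12 ± 0.06, adjusted p = 0.103). So RPL27A, the copy with the fewest transcripts, had the largest difference of the family, and RPL27C, the copy with the most, rose by less, with groups that did not overlap.

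The RPS2 family holds RPS2A, RPS2C and RPS2D here. Of their summed TPM, RPS2D took 10.27%, 8.855% and 8.753% under water and 5.652%, 5.62% and 6.242% in air. The main copy RPS2C (AT2G41840) had 352, 347 and 348 CPM under water and 332, 327 and 354 CPM in air (0.05 ± 0.05, adjusted p = 0.467), and its sign turned with upper quartile scaling (-0.07). RPS2A (AT1G58380) had 39.6, 35.5 and 33.1 CPM under water and 34.1, 30 and 34.9 CPM in air (0.13 ± 0.08, adjusted p = 0.201). Both overlapped between groups.

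In RPL19 the shares of the called copies moved in opposite directions. RPL19B took 9.299%, 8.743% and 8.825% of the family's TPM under water and 7.211%, 6.335% and 6.511% in air. RPL19C took 19.5%, 20.03% and 19.2% under water and 23.12%, 23.62% and 23.74% in air. The main copy RPL19A (AT1G02780) had 545, 530 and 529 CPM under water and 517, 488 and 529 CPM in air (0.06 ± 0.05, adjusted p = 0.335), and its sign turned with upper quartile scaling (-0.06).

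In RPL35, RPL35B (AT2G39390) had 59.5, 54.5 and 52.5 CPM under water and 42.2, 45.1 and 46.5 CPM in air (0.32 ± 0.07, adjusted p = 0.00142). Its share of the family's TPM was 21.67%, 20.03% and 19.81% under water and 15.42%, 16.61% and 16.61% in air. The main copy RPL35A (AT3G09500) had 223, 223 and 218 CPM under water and 234, 229 and 239 CPM in air (-0.08 ± 0.05, adjusted p = 0.188). The groups of RPL35A did not overlap, and it was called lower with upper quartile scaling (adjusted p = 0.00254) or with library size alone (adjusted p = 0.0429). RPL36C (AT5G02450), the RPL36 copy that rose, had 168, 167 and 164 CPM under water and 140, 133 and 128 CPM in air (0.32 ± 0.06, adjusted p = 0.000327).

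**Figure D5:**
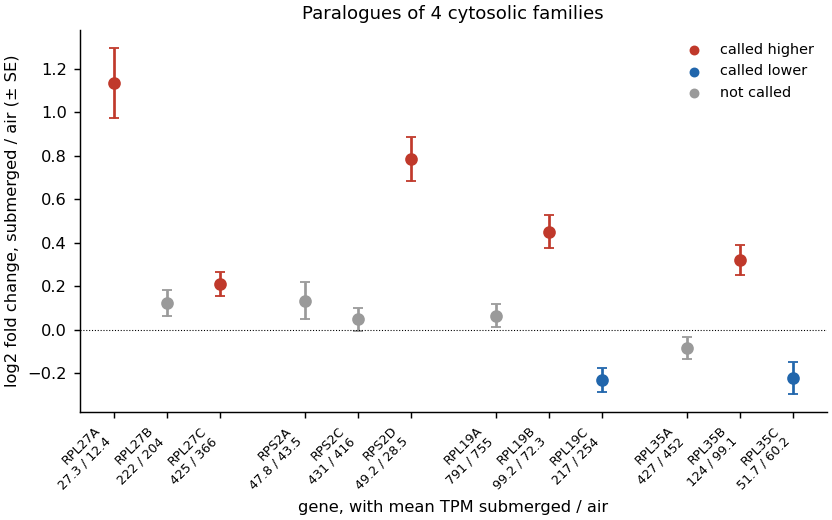
Log2 difference of submerged over air (y axis, ± SE) for the copies of RPL27, RPS2, RPL19 and RPL35 among the members, n = 3 per group. The x axis gives each name with mean TPM submerged / air. In each family a copy other than the most abundant rose, while the most abundant copy lay between -0.08 and 0.21; the points of RPS2C and RPL19A fall below 0 with upper quartile scaling.

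Shifts away from the most abundant copy were not general. Of 149 copies in families of 2 or more, 41 shares lay above and 40 below with no overlap between groups. A gain in the share of any copy is a loss for others of its family, so these counts mirror each other by construction. For CPM over all genes, which is another measure, 32.2% lay above and 30.0% below. The most abundant copy took a smaller share of its family under water in 30 of the 54 families and a larger share in 24, with a median change of -0.27 percentage points. Of the 81 other copies, 48 had a larger log2 difference than the most abundant copy of their family. Coding sequences of paralogues were alike at a median of 84.4% of aligned bases over 110 tested pairs, with a range from 63.8% to 98.3%. In the 4 widest families the pairs of tested members were alike at 78.4% to 88.7%. No source used here says how reads common to near-identical copies were assigned, so the separate values of such copies are uncertain, above all in the 6 pairs with at least 95%.

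The promoter motifs were also counted by call. Among cytosolic members the telo-box was found in 41.8% of the 67 that rose and in 52.7% of the 74 not called. Site II was found in 68.7% of those that rose and in 83.8% of those not called. These shares are given with no test. Of the 14 plastid members that fell, 7 held site II and 3 held the telo-box. RPL14B and RPS8A, whose promoters are shown above, hold both motifs and were not called.

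Genes that work with the ribosome did not move as a block. A list of translation factors, which also held the RACK1 copies and TCTP1, had 20 genes tested. Of these, 10 rose and 1 fell (50% and 5%, against 28.8% and 26.1% of all genes). Among genes with a mean of at least 50 CPM the shares were 40.0% and 33.7%. The median gene of the list had 95.9 CPM in air. The median log2 difference of the list was 0.15. The largest was EIF4A1 (AT3G13920), an RNA helicase of initiation, with 609, 595 and 611 CPM under water and 378, 352 and 385 CPM in air (0.70 ± 0.05, adjusted p = 2.23e-07). RACK1B (AT1G48630), a copy of a scaffold protein on the small subunit, had 114, 107 and 96.8 CPM under water and 72.6, 61.9 and 71.1 CPM in air (0.63 ± 0.08, adjusted p = 1.47e-05). The main copy RACK1A (AT1G18080) stood at -0.02 ± 0.06 (adjusted p = 0.816). TCTP1 (AT3G16640), the gene of the list that fell, had 1365, 1433 and 1321 CPM under water and 1692, 1629 and 1750 CPM in air (-0.30 ± 0.06, adjusted p = 0.000551). With upper quartile scaling 9 genes of this list rose and 5 fell, and the median was 0.03.

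Of 26 ribosome biogenesis factors 6 rose and 4 fell, with a median of 0.03. These shares, 23.1% and 15.4%, are under the 28.8% and 26.1% of all genes. FIB2 (AT4G25630), a fibrillarin that methylates ribosomal RNA, had 71.2, 62.6 and 47.6 CPM under water and 39.3, 42.7 and 43.6 CPM in air (0.54 ± 0.11, adjusted p = 0.00149). NRPA2 (AT1G29940), a subunit of RNA polymerase I, which makes ribosomal RNA, had 78.1, 73.2 and 77.2 CPM under water and 59.5, 60.8 and 62.6 CPM in air (0.32 ± 0.06, adjusted p = 0.000346). MTR4 (AT1G59760), a helicase of ribosomal RNA processing, had 40.3, 39.4 and 36.8 CPM under water and 46.7, 50.7 and 42.9 CPM in air (-0.27 ± 0.07, adjusted p = 0.00763). With upper quartile scaling 3 of these factors rose and 7 fell, and the median turned to -0.10; with library size alone it was -0.01. Without submerged replicate 3 the number that rose was 9, and without air replicate 1, air replicate 3 or submerged replicate 2 the number that fell was 2.

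TOR is the kinase that ties ribosome production to growth, and S6 kinases carry its signal to RPS6. Of 13 genes tested from a list made for this pathway, RPS6A and RPS6B left out, 6 rose and 1 fell, RAPTOR2. These shares are 46.2% and 7.69%, against 28.8% and 26.1% of all genes. Among genes with a mean of at least 50 CPM the shares were 40.0% and 33.7%. The median gene of the list had 59.1 CPM in air. The list is wider than the pathway and also holds GCN2 and ANAC082. ANAC082 is among the 6 that rose. S6K2 (AT3G08720) had 32.5, 37.2 and 29.4 CPM under water and 6.18, 6.73 and 5.21 CPM in air, a log2 difference of 2.45 ± 0.12 (adjusted p = 2.81e-09). S6K1 (AT3G08730) had 96.0, 99.0 and 90.6 CPM under water and 56.2, 55.3 and 52.9 CPM in air (0.80 ± 0.06, adjusted p = 1.28e-07). Both lay far outside the range of air, while TOR itself (AT1G50030) stood at 0.03 ± 0.06 (adjusted p = 0.736). The median of the list was 0.03, and with upper quartile scaling it was -0.10, with 5 genes higher and 5 lower; it was -0.02 with library size alone and without submerged replicate 3. These values are transcript levels, and phosphorylation was not measured.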

How the data were processed

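RNA of whole seedlings was extracted with Trizol, per the labels' protocols, and TAIR10 is the build that the submitters' processing notes name. No source used here names the aligner, the counting program or the strand setting. The authors deposited whole-number counts and TPM for 27655 genes in each library, per the file headers; no column was left without a sample.

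The deposited counts entered edgeR 4.0.16 (R 4.3.3; TMM factors from 0.967 to 1.034, filterByExpr with minimum count 10 and minimum total 15, quasi-likelihood F test, Benjamini-Hochberg adjustment over 19495 genes, threshold 0.05). Log2 differences are submerged over air with SE. CPM was computed here from counts and TMM factors, and TPM is as the authors deposited it. Every adjusted p is from this test unless another tool (DESeq2 1.42.0, limma 3.58.1) is named. Pairs of libraries in a group differed by 2.27 to 4.69 times the sampling variance of halved counts, so none was counted as a repeat.

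The members, the lists and the tests were chosen with earlier results of these data known. The rule for named members took, in each subunit, the 5 largest called rises and 5 largest called falls among members whose groups did not overlap and whose higher group had 5 CPM or more, the 3 most abundant in air, all copies of the 4 families with the widest range, and up to 4 called plastid and mitochondrial members each. Some members that the rule took are not reported here. Other members and the translation genes were named after their values were seen. List genes were kept where the locus and symbol matched. This left 26 of 30 biogenesis factors and 20 of 32 genes of the translation factor list. Of the TOR list 16 of 20 genes were kept, RPS6A and RPS6B included.

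Promoters and coding sequences were read from the RefSeq TAIR10.1 genome by its own annotation, matched by locus for all 186 members; the deposited tables hold no coordinates. The procedure was tested on simulated counts with 200 changed genes. Alternatives were other scalings, filters and tools, removal of organelle genes, halved counts, leaving out each library in turn and a fit with a replicate block. The split by compartment under these alternatives, and the split at 100 TPM, were added after the data were seen.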

Additional observations from a re-analysis of the deposited data

How the results depend on the processing

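Over 17 alternative fits the cytosolic median stayed above 0 and the plastid median below 0. Scaling cannot change the cytosolic minus plastid difference of 0.31. It ranged from 0.25 to 0.38 when each library was left out in turn. The exceptions in calls came with scaling and with single libraries. With upper quartile scaling the large subunit had 19 members higher and 30 lower (median -0.029), the small subunit 13 and 16 (median -0.0015), the cytosolic set 31 and 21 (median 0.018) and the plastid set 0 and 24 (median -0.294; edgeR gave RPL3B, the member that rose as reported, an adjusted p of 0.105); the median of all genes was -0.117, 39.59% of all calls were higher in place of 52.47%, and RPL19A (-0.058), RPS2C (-0.074) and RPS8A (-0.032) changed sign. With library size alone, 23 large subunit, 7 small subunit and 23 plastid members were lower, and the large subunit median was 0.052. When each library was left out in turn, members called lower ranged from 8 to 20 (large subunit), 1 to 5 (small subunit), 2 to 4 (cytosolic) and 7 to 21 (plastid), cytosolic members called higher from 45 to 70, and the small subunit median from 0.076 to 0.155.

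Same-numbered libraries did not deviate together (correlations -0.037, 0.04 and 0.038), and pairs of unequal number ran from -0.124 to 0.109. Neither these values nor the labels say whether equal numbers mark libraries handled together. A replicate block gave 61 cytosolic members higher and 15 plastid members lower. Of the named members only RPS15AB lost its call in that fit (adjusted p = 0.0562). Of 544 values of named members under an alternative, 514 kept their direction and side of the threshold, 20 lost a call, 7 gained one and 3 changed sign. With AAACCCTAA the telo-box share was 26.8% (cytosolic), 4% (plastid) and 3.6% (all promoters). With TGGGCC alone the site II share was 63.1%, 16% and 15.5%. The causes of these shifts were not tested. Depth limited the rarest members: RPS23A and RPS8B had log2 differences of 0.49 with an SE of 0.48.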
